A study of Homo sapiens with 179 samples.

Results

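A set of 9 genes of the p53 response and of apoptosis was followed through all 179 RNA-seq libraries of the study. They were picked by symbol from the 19084 genes in the deposited tables, and all 9 were found: MDM2, CDKN1A, BAX, BAK1, BBC3, FAS, GDF15, MCL1 and BCL2. The libraries came from H1, an established line of human embryonic stem cells, kept in E8 medium on Matrigel with no stress treatment in the labels. The study compared library protocols and degrees of multiplexing. The TruSeq libraries, made with Illumina's kit and run at 12 samples per lane, formed the groups H1p43 (n = 3) and H1p16 (n = 3). LM-Seq, a protocol that captures mRNA on oligo-dT beads and copies it from random hexamers, gave 95 libraries in Lane 1, 48 in Lane 2, 24 in Lane 3 and 6 in Lane 4, where each lane was shared by that many samples. The sources used here do not say what the p in H1p43 and H1p16 means, or what distinguishes the LM-Seq libraries within a lane. The labels record no separate cultures, so every p-value below measures only how these libraries vary, and that variation may be technical. The libraries are bulk RNA, in which fewer cells of a type and less RNA per cell cannot be told apart.

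The transcription factor p53 accumulates after DNA damage and other stress and switches on genes that stop the cell cycle or kill the cell. MDM2 closes a feedback loop, because it is a p53 target and also the ubiquitin ligase that marks p53 for destruction. At the mitochondrion the outcome is set by the BCL2 family: BAX and BAK1 open the outer membrane, MCL1 and BCL2 hold them back, and BH3-only proteins such as BBC3 (PUMA) release that hold. Human embryonic stem cells are known to enter apoptosis readily after DNA damage.

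Promoter sequences were examined for the response element of p53, a 20-base motif. The windows came from RefSeq on the build GRCh38.p14, and each ran from 250 bases before to 50 bases after an annotated start. For 8 of the 9 genes 13 windows were found, and MCL1 had no entry. The element, searched on both strands with at most 3 mismatches, occurred in 5.2% of all 35116 windows. It was matched in windows of MDM2, FAS and GDF15, which are shown because they hold the match. All 3 genes differed between H1p43 and H1p16, but so did 71.8% of all tested genes, and MDM2 and FAS were lower while GDF15 was higher. A link between the match and these differences was not tested. Capitals mark the matches, and the strand of all 3 windows is plus. In MDM2 (chr12:68808767-68809066) the matches lie at -94 to -75 with 2 mismatches and at -56 to -37 with 3, counted from the start. In FAS (chr10:88991181-88991480) the match lies at -122 to -103 with 2 mismatches, and in GDF15 (chr19:18385908-18386207) it lies downstream of the start, at 29 to 48, with 3.
MDM2: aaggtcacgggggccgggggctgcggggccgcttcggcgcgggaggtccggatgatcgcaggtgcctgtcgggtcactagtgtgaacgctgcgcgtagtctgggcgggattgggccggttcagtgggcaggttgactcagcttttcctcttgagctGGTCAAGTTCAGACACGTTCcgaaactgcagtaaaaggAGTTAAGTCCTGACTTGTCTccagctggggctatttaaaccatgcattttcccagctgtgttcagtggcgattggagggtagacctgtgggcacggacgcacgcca
FAS: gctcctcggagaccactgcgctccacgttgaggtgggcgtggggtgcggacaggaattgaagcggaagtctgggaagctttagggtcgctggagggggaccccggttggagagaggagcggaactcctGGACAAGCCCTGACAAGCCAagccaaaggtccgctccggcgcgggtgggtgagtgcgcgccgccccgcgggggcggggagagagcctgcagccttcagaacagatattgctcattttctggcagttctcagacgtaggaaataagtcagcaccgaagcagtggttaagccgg
GDF15: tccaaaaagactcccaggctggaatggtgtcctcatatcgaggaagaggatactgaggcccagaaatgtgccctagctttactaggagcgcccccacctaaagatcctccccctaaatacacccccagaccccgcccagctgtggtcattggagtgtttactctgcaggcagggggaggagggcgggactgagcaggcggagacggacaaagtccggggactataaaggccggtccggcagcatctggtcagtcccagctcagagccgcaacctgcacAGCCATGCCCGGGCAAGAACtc
No match was found in the windows of CDKN1A, BAX, BAK1, BBC3 and BCL2, nor in the upstream windows of MDM2 and FAS, which says only that these letters are not in those windows. The TATA hexamer TATAAA was found in GDF15 alone of the 8 genes, against 11.5% of all windows.

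Sequencing depth separated the groups. Totals ran from 29018100 to 35852600 expected counts in H1p43 and from 23680500 to 30628600 in H1p16. Lane 1 libraries held 1040670 to 1539280 expected counts, and Lane 2 libraries 2005740 to 2739080. Lane 3 libraries held 4028610 to 4918580, and Lane 4 libraries 15780100 to 16583000. As a check of the H1 label, POU5F1, a core pluripotency factor, stood at means of 2101 to 3191 TPM across the 6 groups. SOX17, an endoderm marker, was at 0 in every library but 1 of Lane 2, and means of COL3A1, PAX6, T, GATA6 and PTPRC stayed at or below 0.32 TPM. The collagen genes COL1A1 and COL1A2, often used as fibroblast markers, were nonetheless detected, at 45.7 and 50.7 TPM in H1p43 and 44.9 and 29.3 TPM in H1p16. FASLG, which encodes the ligand of FAS, was at 0 in all LM-Seq and H1p43 libraries and reached 0.04 TPM in 1 H1p16 library.

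**Figure D1:**
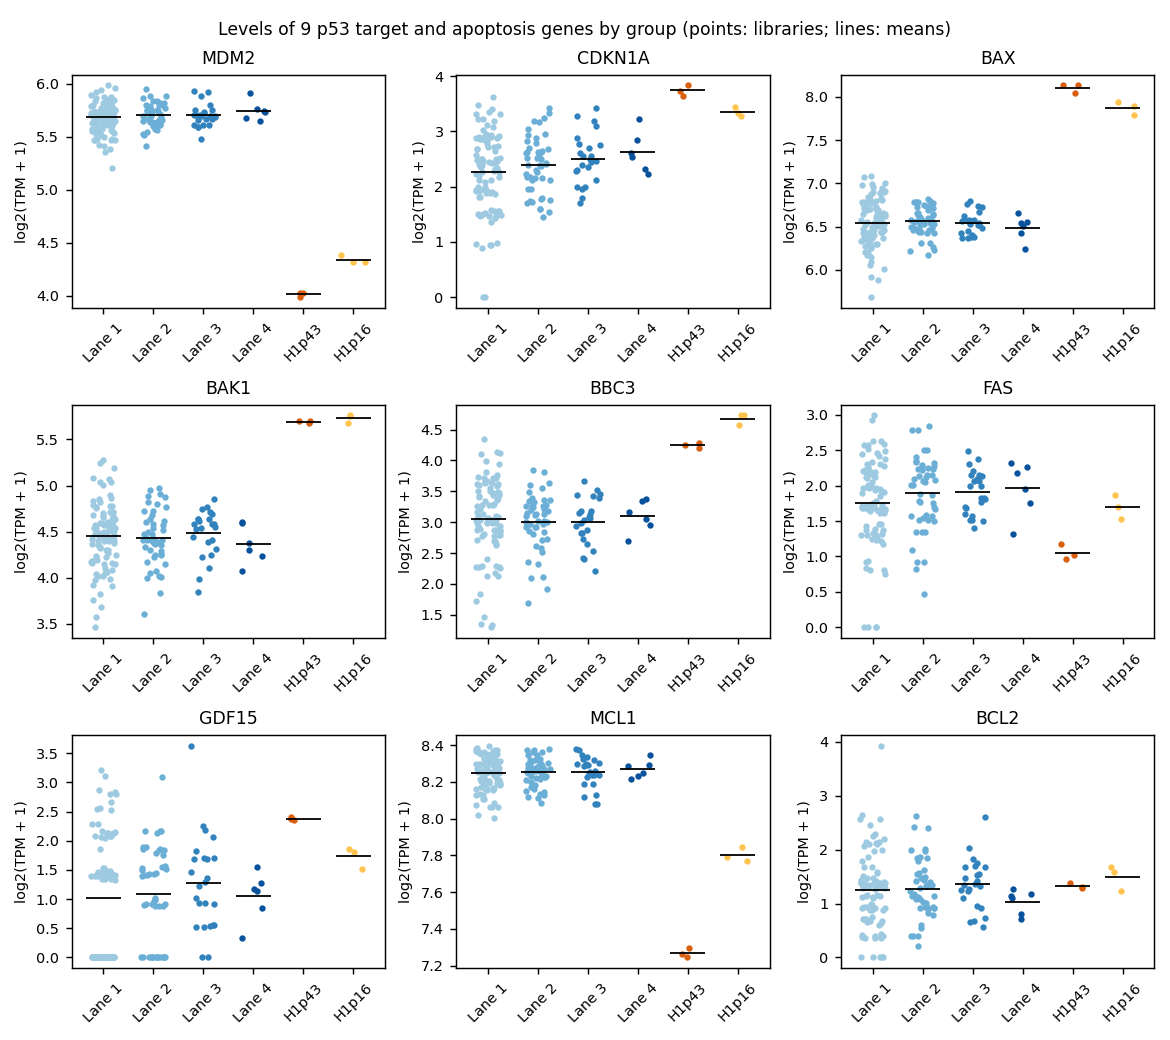
Levels of the 9 genes as log2(TPM + 1), with 1 point per library and a line at each group mean of these log values, for Lane 1 to Lane 4, H1p43 and H1p16. For MDM2 the 4 lanes lie level, at means of 50.6 to 52.8 TPM, while H1p43 and H1p16 lie lower, at 15.1 and 19.3 TPM.

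The levels of the 9 genes spanned a wide range in every group. In TPM, which are scaled by transcript length, MCL1 was highest in each lane, with means of 303 to 308 TPM, and BAX followed at 89.1 to 93.9 TPM. MDM2 came next in the lanes, at 50.6 to 52.8 TPM, ahead of BAK1 at 19.8 to 21.7 TPM. Below these came BBC3, CDKN1A and FAS, whose neighbouring ranges overlapped in every lane, and GDF15 and BCL2 were the lowest, at 1.06 to 1.90 TPM. In the TruSeq libraries the order differed. BAX was first, at 274.5 TPM in H1p43 and 233.9 TPM in H1p16, and its range overlapped that of MCL1 in H1p16. MDM2 was behind BAX, MCL1, BAK1 and BBC3 in both.

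In H1p43, 3 of the 9 genes were higher than in H1p16 and 5 were lower by edgeR's quasi-likelihood test at an adjusted p under 0.05. GDF15, CDKN1A and BAX rose, and MDM2, FAS, BBC3, BAK1 and MCL1 fell. Of all 14574 genes tested, 10460 passed the same threshold, or 71.8%, with 36.4% higher and 35.4% lower. A call was thus the rule for genes in and outside the set. The median log2 fold change of the 9 genes was -0.15, against 0.01 for all genes. On log2(TPM + 1), limma split the called genes into 6132 higher and 3423 lower, against 5305 and 5155 in edgeR. TPM ranges of the 2 groups did not overlap for 7 of the 9 genes, which held for 73.7% of all tested genes.

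Among the targets, MDM2 stood at 15.2, 14.9 and 15.3 TPM in H1p43 and at 19.85, 19 and 18.99 TPM in H1p16. Every H1p43 library lay below every H1p16 library. The fold change was -0.46 ± 0.03 on the log2 scale (SE, edgeR adjusted p = 7.5e-10). CDKN1A, the cyclin-dependent kinase inhibitor p21, moved the other way, with 13.3, 11.5 and 12.3 TPM in H1p43 and 9.11, 9.91 and 8.71 TPM in H1p16. The groups did not overlap, and the log2 fold change was 0.32 ± 0.07 (SE, edgeR adjusted p = 0.00083). GDF15, a secreted stress-responsive cytokine, had 4.17, 4.10 and 4.30 TPM in H1p43 against 1.87, 2.65 and 2.52 TPM in H1p16. Its H1p43 libraries were close together and all above H1p16, with a log2 fold change of 0.71 ± 0.17 (SE, edgeR adjusted p = 0.001). FAS, a death receptor, was low in both groups, with 1.25, 0.95 and 1.03 TPM in H1p43 and 1.89, 2.65 and 2.24 TPM in H1p16. It showed the largest change of the 9, a log2 fold change of -1.18 ± 0.17 (SE, edgeR adjusted p = 6.8e-06), on a median of 48 counts per library in H1p43 and 83 in H1p16.

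Within the mitochondrial group, BBC3 had 18.5, 17.4 and 18.1 TPM in H1p43 and 25.5, 25.6 and 22.7 TPM in H1p16. The groups were separate, and the log2 fold change was -0.56 ± 0.06 (SE, edgeR adjusted p = 1.0e-07). MCL1, a short-lived anti-apoptotic protein, had 150.6, 152.5 and 156.2 TPM in H1p43 and 217, 221 and 229 TPM in H1p16. This was the change with the smallest error of the 9, a log2 fold change of -0.65 ± 0.02 (SE, edgeR adjusted p = 3.6e-14). The 2 pore-forming genes changed by little and in opposite directions. BAX had 264, 280.2 and 279.6 TPM in H1p43 against 244.5, 236 and 221 TPM in H1p16, with a log2 fold change of 0.13 ± 0.04 (SE, edgeR adjusted p = 0.0035). BAK1 had 51.1, 51.1 and 50.1 TPM in H1p43 and 53.1, 50.1 and 53.3 TPM in H1p16. These ranges overlapped. The log2 fold change of BAK1 from counts was -0.15 ± 0.04 (SE, edgeR adjusted p = 0.0011), but limma on log2(TPM + 1) gave -0.04 (adjusted p = 0.30). With a required minimum fold of 1.2, CDKN1A, BAX and BAK1 were no longer called, and 5 of the 9 genes and 5328 of all genes were.

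BCL2, the founding anti-apoptotic member of its family, lay at the edge of the threshold, and its direction depended on the unit. It had 1.45, 1.62 and 1.48 TPM in H1p43 and 2.01, 2.18 and 1.35 TPM in H1p16, and the groups overlapped. The edgeR log2 fold change from counts was 0.32 ± 0.14 (SE, adjusted p = 0.051), while limma on log2(TPM + 1) gave -0.17 (adjusted p = 0.22). Without a filter on low counts edgeR called it higher (log2 fold change 0.32, adjusted p = 0.044). It was also called without H1p16 replicate 1 (0.37, edgeR adjusted p = 0.036) and without H1p16 replicate 2 (0.45, edgeR adjusted p = 0.025). Without H1p16 replicate 3, the lowest in TPM of the 6 libraries, the log2 fold change was 0.15 (edgeR adjusted p = 0.32). TPM divide a count by the transcript length that RSEM infers. Counts per TPM, relative to the median of genes with 1 transcript, give that length in relative terms. For BCL2, which has 2 transcripts in the table, the relative length was 1.93 ± 0.07 in H1p43 and 1.19 ± 0.04 in H1p16 (SD, n = 3 each), and 2.30 ± 0.0053 in Lane 4 (SD, n = 6). For the other 8 genes the ratio of the H1p43 to the H1p16 length lay between 0.988 and 0.996. Which BCL2 transcripts were present was not tested.

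**Figure D2:**
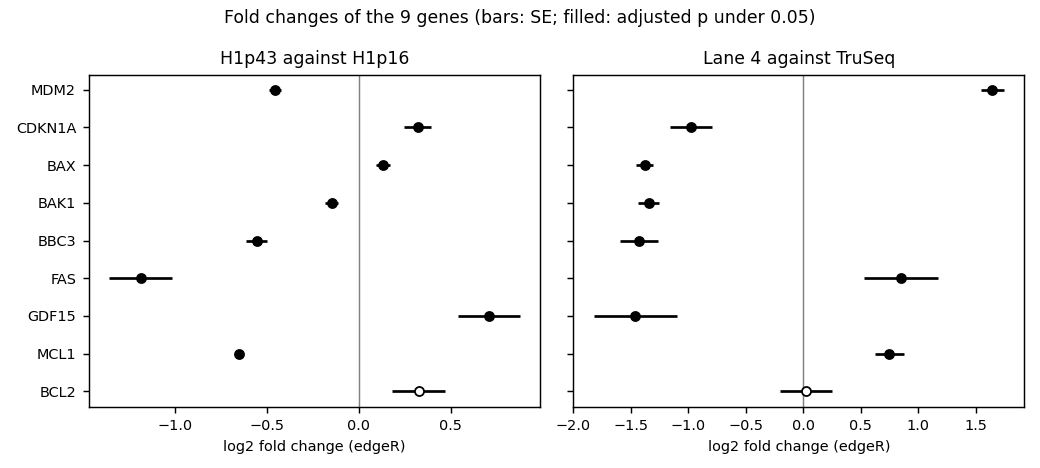
log2 fold changes by edgeR with SE bars for H1p43 against H1p16 (left) and Lane 4 against TruSeq (right), with filled points where the adjusted p was under 0.05. MDM2 lies at -0.46 on the left and 1.65 on the right, and BCL2 is open in both.

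In a wider list, of 12 tested p53 regulation genes, 3 were higher in H1p43 and 8 lower by edgeR. Of all tested genes, 36.4% were higher and 35.4% lower. The direction of the smallest changes depended on the unit. RPL5 and RPL11, counted as lower, had log2 fold changes of -0.07 and -0.08 from counts. Their ratios of mean TPM in H1p43 to H1p16 were 1.03 and 1.02. ATR, a DNA damage kinase, rose with a log2 fold change of 0.62 ± 0.04, and EP300, an acetyltransferase that modifies p53, fell by 0.82 ± 0.03 on the log2 scale (SE). Of 32 other p53 targets, 15 were higher and 10 lower, with a median log2 fold change of 0.12. AEN, counted as lower at -0.09, had a ratio of mean TPM of 1.01. PMAIP1 (NOXA), a BH3-only protein that binds MCL1, had the lowest adjusted p among these targets, at 154.4 TPM in H1p43 against 67.2 TPM in H1p16 (log2 fold change 1.09 ± 0.03, edgeR adjusted p = 8.1e-15). NINJ1, which acts in plasma membrane rupture, and RRM2B, a ribonucleotide reductase subunit, also rose, with log2 fold changes of 0.65 and 0.43. PPM1D and PERP fell, with log2 fold changes of -0.66 and -0.56. The p53 targets thus moved in both directions.

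Of 10 tested other BCL2 family genes, 5 were higher in H1p43 and 2 lower, with a median log2 fold change of 0.19. The shares of all tested genes, for this and the following lists, were 36.4% higher and 35.4% lower. BCL2L2 (BCL-W), an anti-apoptotic protein, rose by 1.11 ± 0.05 on the log2 scale, and BMF, a BH3-only protein, rose by 0.76 ± 0.04 (SE). BCL2L1, which encodes BCL-XL, fell by 0.62 ± 0.03 and BID fell by 0.33 ± 0.04. PMAIP1 belongs to this list as well as to the p53 targets. Among 19 tested caspases and their regulators 4 were higher and 5 lower, with log2 fold changes of -0.68 for CASP2 and 0.31 for CASP10. Of 6 tested genes in the list of the other death receptor pathway genes, TNFRSF1A and RIPK1 fell, with log2 fold changes of -0.62 and -0.30. The 5 pluripotency markers were all lower in H1p43. DNMT3B changed most, at 773 TPM in H1p43 against 1460 TPM in H1p16. The others changed less, with log2 fold changes of -0.51 for LIN28A, -0.29 for SOX2, -0.24 for NANOG and -0.16 for POU5F1. Of 8 markers of differentiated cells 3 could be tested, and from counts 2 were higher in H1p43 and 1 lower. COL1A2 was higher by a log2 fold change of 0.68 ± 0.03 (SE, edgeR adjusted p = 3.9e-12), PAX6 by 0.58 ± 0.24 (SE, edgeR adjusted p = 0.039), and COL1A1 had a log2 fold change of -0.08 ± 0.04 (SE, edgeR adjusted p = 0.047). PAX6 averaged only 0.26 TPM over the TruSeq libraries. The direction of COL1A1 depended on the unit, as its mean was 45.7 TPM in H1p43 and 44.9 TPM in H1p16. The part of these shifts in the changes of the 9 genes was not tested.

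**Figure D3:**
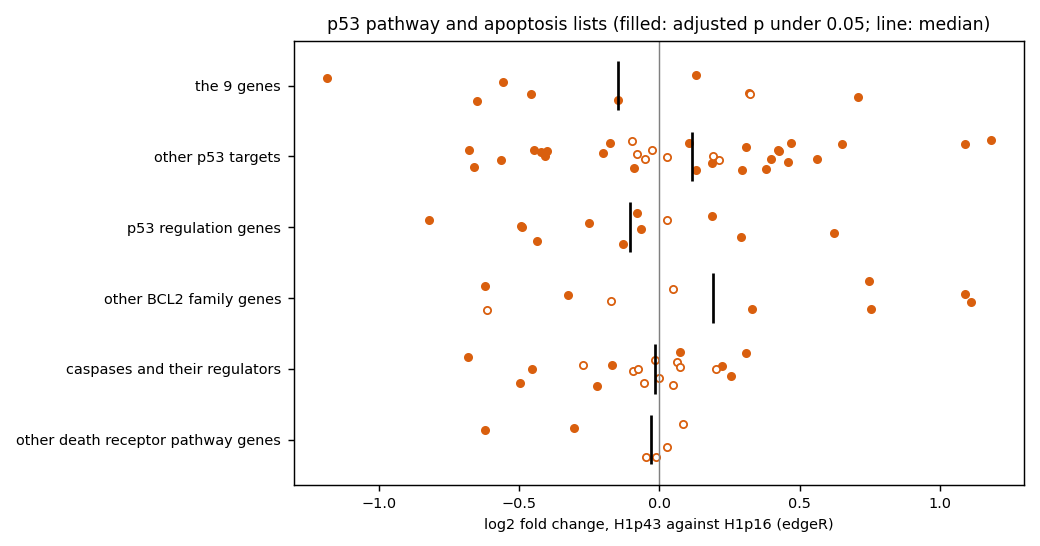
log2 fold changes of each tested gene in 6 lists, H1p43 against H1p16, filled where the edgeR adjusted p was under 0.05, with a line at each median. Every list but the other death receptor pathway genes has called genes on both sides of 0.

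In Lane 4, the LM-Seq lane with the deepest libraries, MDM2, FAS and MCL1 were higher than in the 6 TruSeq libraries and CDKN1A, GDF15, BBC3, BAX and BAK1 were lower, 8 of 9 in all by edgeR at an adjusted p under 0.05. Of all genes, 9852 of 13827 were called, or 71.3%, with 34.3% higher and 36.9% lower. The median log2 fold change of the 9 genes was -0.97, against -0.06 for all genes. Ranges did not overlap for 6 of the 9 genes, and for 53.9% of all tested genes. Protocol, lane, multiplexing and culture cannot be told apart in this comparison. Its reference pools H1p43 and H1p16, so its SE and p also carry the difference between those groups. Against H1p16 alone, edgeR called 6 of the 9 genes and 66.8% of all tested genes. Against H1p43 alone it called 8 of the 9 and 73.2% of all.

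MDM2 ran from 49.2 TPM through a median of 52.4 to 59.2 TPM in Lane 4, against 14.9, 17.1 and 19.9 TPM as lowest, median and highest in TruSeq. The groups were far apart, and the log2 fold change was 1.65 ± 0.10 (SE, edgeR adjusted p = 6.1e-10). MCL1 ran from 296 through 307 to 324 TPM in Lane 4, against 150.6, 187 and 229 TPM in TruSeq, with a log2 fold change of 0.75 ± 0.13 (SE, edgeR adjusted p = 6.3e-05). For FAS the ranges met, with 1.5, 3.19 and 4.00 TPM as lowest, median and highest in Lane 4 and 0.95, 1.57 and 2.65 TPM in TruSeq. Its log2 fold change was 0.85 ± 0.32 (SE, edgeR adjusted p = 0.027), and the call was lost in 6 of the 12 fits that each left out 1 library. Those were the fits without each H1p43 replicate and without the Lane 4 libraries at 3.51, 3.78 and 4.00 TPM in turn, with edgeR adjusted p between 0.053 and 0.067. Against H1p16 alone the log2 fold change of FAS was 0.36 (edgeR adjusted p = 0.31).

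The genes that were lower in Lane 4 included both pore formers. BAX had 74.6, 91.02 and 100.1 TPM as lowest, median and highest in Lane 4, against 221, 254.2 and 280.2 TPM in TruSeq, and the log2 fold change was -1.38 ± 0.07 (SE, edgeR adjusted p = 1.1e-10). BAK1 had 15.8, 19.3 and 23.4 TPM in Lane 4 against 50.1, 51.1 and 53.3 TPM in TruSeq, a log2 fold change of -1.34 ± 0.09 (SE, edgeR adjusted p = 1.8e-09). No Lane 4 library reached the lowest TruSeq library for either gene. BBC3 followed at 5.48, 7.62 and 9.37 TPM in Lane 4 and 17.4, 20.6 and 25.6 TPM in TruSeq, a log2 fold change of -1.43 ± 0.17 (SE, edgeR adjusted p = 1.3e-06). CDKN1A had 3.71, 4.94 and 8.39 TPM in Lane 4 and 8.71, 10.7 and 13.3 TPM in TruSeq, a log2 fold change of -0.97 ± 0.18 (SE, edgeR adjusted p = 0.00017). Both genes were separate between the groups. GDF15 overlapped, at 0.26, 1.24 and 1.93 TPM in Lane 4 and 1.87, 3.38 and 4.30 TPM in TruSeq, with a log2 fold change of -1.46 ± 0.36 (SE, edgeR adjusted p = 0.0020). Against H1p16 alone the log2 fold change of GDF15 was -1.06 (edgeR adjusted p = 0.072). BCL2 was not called from counts, with a log2 fold change of 0.03 ± 0.23 (SE, edgeR adjusted p = 0.93), while limma on log2(TPM + 1) gave -0.38 (adjusted p = 0.023).

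The 9 genes differ in base composition. Mean G+C content of the annotated transcripts was 41.6% in FAS, 41.9% in MDM2, 43.9% in BCL2 and 48.9% in MCL1. It was 57.3% in CDKN1A, 58.8% in BAK1, 60.2% in BAX, 62.9% in GDF15 and 64.8% in BBC3. The 5 genes at 57.3% or more were the 5 that edgeR called lower in Lane 4. Among 13512 tested genes with a known composition, the median log2 fold change was 0.50, 0.30, 0.02, -0.43 and -0.85 in 5 equal groups from low to high G+C, and Pearson's r across genes was -0.53. For H1p43 against H1p16, r was 0.11 over 14229 genes. With log2 mean transcript length in place of G+C, r was 0.29 for Lane 4 against TruSeq and 0.01 for H1p43 against H1p16. Among the 9 genes, mean length ran from 781 bases in BAX to 12630 bases in MDM2. These annotated transcripts, from GENCODE v29, need not be those that RSEM counted. For MDM2 and BAK1 the relative lengths in Lane 4 were 2.64 and 0.77, while the annotated lengths were 12630 and 2136 bases. The length and G+C of MDM2 may thus describe another transcript. Genes are not independent replicates, so no p is given, and the part of base composition or length in the changes of the 9 genes was not tested. These relations were looked at after the fold changes had been seen.

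**Figure D4:**
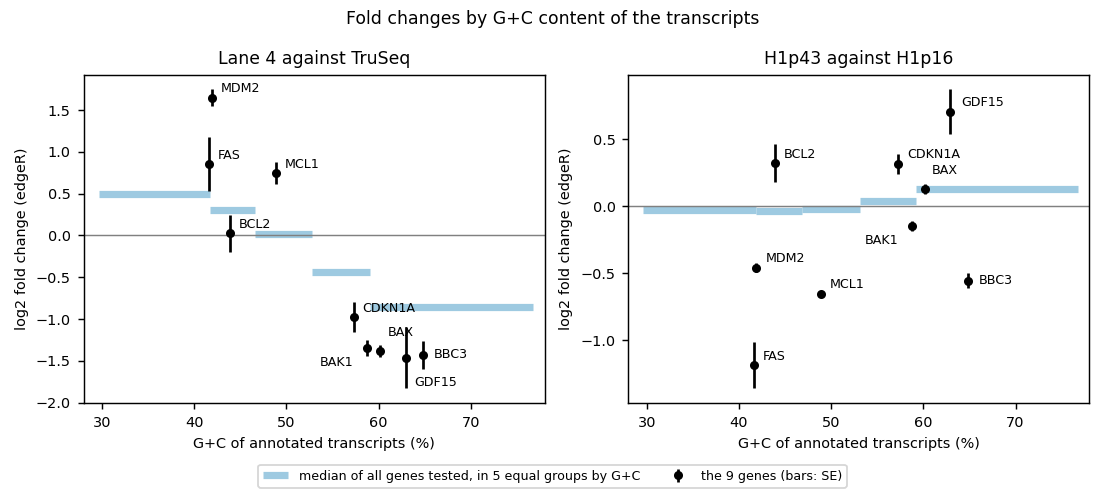
log2 fold change (edgeR, SE bars) against the mean G+C percentage of annotated transcripts for the 9 genes, with blue bars at the median of all tested genes in each of 5 equal groups by G+C. For Lane 4 against TruSeq (left) the medians run from 0.50 to -0.85 and the 5 genes of high G+C lie below 0. For H1p43 against H1p16 (right) the medians stay between -0.03 and 0.13.

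The other lanes were set against the same 6 TruSeq libraries, and each also holds libraries with the 6 numbers of Lane 4, so these comparisons are not independent of the one above. With Lane 3, Lane 2 or Lane 1 in place of Lane 4, edgeR called 7 of 8, 7 of 7 and 6 of 6 tested genes of the 9, while 79%, 81.1% and 82.8% of all tested genes were called. In that order of lanes the log2 fold change was -1.36, -1.37 and -1.41 for BAX and 0.70, 0.67 and 0.64 for MCL1. In the wider lists, MDM4, the partner of MDM2 in restraining p53, was higher in Lane 4, at 13.3 TPM against 4.10 TPM in TruSeq (log2 fold change 1.74 ± 0.07, edgeR adjusted p = 4.8e-12). Of the 12 tested p53 regulation genes, 9 were higher and 1 was lower in Lane 4 than in TruSeq. The shares of all tested genes in that comparison, against which these and the following counts are to be read, were 34.3% higher and 36.9% lower. Of the 32 other p53 targets, 12 were higher and 11 lower, with NINJ1 at 9.40 TPM in Lane 4 against 48.3 TPM in TruSeq. Among 10 other BCL2 family genes, 2 were higher and 6 lower, with PMAIP1 and HRK up and BOK, BAD and BCL2L2 among those down. Among 19 caspases and their regulators, 8 were higher and 4 lower, and APAF1, the scaffold that activates CASP9, rose with a log2 fold change of 0.96 ± 0.06 (SE, edgeR adjusted p = 3.0e-10).

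Within LM-Seq, no difference between lanes that were shared by different numbers of samples was called for those of the 9 genes that could be tested. MDM2, BAX, BAK1 and MCL1 had enough counts for each comparison, CDKN1A and BBC3 for those of Lane 3 and Lane 4, FAS and BCL2 for Lane 4 alone, and GDF15 for none. Over library numbers held by both lanes, edgeR called 0 of 4 tested genes of the 9 in Lane 2 against Lane 1, 0 of 6 in Lane 3 against Lane 1 and 0 of 8 in Lane 4 against Lane 1, where all genes gave 0 (0.0%), 0 (0.0%) and 2 (0.0161%). At an unadjusted p under 0.05, 182 of all 10120 tested genes passed in Lane 2 and 216 of 10871 in Lane 3. In Lane 4 fewer than 182 of 12419 passed. Each share lies below the 0.05 that chance alone would give, so the test was cautious here. Of the 4, 6 and 8 tested genes of the 9, 0 passed. With so few of all genes passing, this does not set the 9 apart from other genes. DESeq2, run without edgeR's filter on low counts but with its own default filtering, called 0, 0 and 2 genes in all, and none of the 9. Log2 fold changes were between -0.05 and 0.02 for the 4 genes in Lane 2 and between -0.02 and 0.04 for the 6 in Lane 3. For the 8 genes in Lane 4 they spanned -0.30 to 0.89. The upper bound was FAS, at 0.89 ± 0.52 (SE, edgeR adjusted p = 1.0), a gene with a median of 3 counts in Lane 1. These tests treated same-numbered libraries as independent, although such libraries deviated together from their lane means. A block for library number, which pairs them, raised the genes called by edgeR to 26, 44 and 13 of all, with none of the tested members.

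Within a lane the spread differed widely between the 9 genes. In Lane 1, MCL1 had 256, 305 and 336 TPM as lowest, median and highest of 95 libraries, and MDM2 had 35.8, 51.1 and 62.5 TPM. CDKN1A had 0, 4.12 and 11.3 TPM there, and BCL2 had 0, 1.49 and 14.2 TPM. The abundant genes thus varied within a narrow band, while the rare ones included libraries without a read. In Lane 1 the coefficient of variation over 95 libraries was 6.19% for MCL1, with a median of 638 counts, and 9.87% for MDM2. It was 18.8% for BAX, 25.7% for BAK1, 44.3% for BBC3, 51.9% for FAS, 55.8% for CDKN1A, 102.8% for BCL2 and 121.2% for GDF15, whose median count was 1. In the deeper Lane 3 it was 7.58% for MDM2 and still 120.9% for GDF15. GDF15 was at 0 in 44 of the 95 Lane 1 libraries, in 14 of 48 in Lane 2, in 2 of 24 in Lane 3 and in none of Lane 4. In a library without a read, a level of up to 3 counts remains possible. In Lane 1 the spread can be set beside that of genes with like counts. Variance over counting noise was 1.81 for MDM2, against a median of 1.83 for genes of like count, and 0.94 for FAS, against 1.35. It was also below the like-count median for MCL1 (2.03 against 2.76), BAX (1.43 against 1.47) and BBC3 (1.35 against 1.36). It was above for BAK1 (1.57 against 1.42), BCL2 (1.54 against 1.35), GDF15 (1.48 against 1.34) and CDKN1A (1.48 against 1.36).

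GDF15 had 1 library that stood apart. In Lane 3 its highest value was 11.4 TPM, on 25 counts, and the next highest was 3.75 TPM. The variance over counting noise was 6.04, against a median of 2.09 for genes of like count. The library with the same number also had the highest GDF15 in Lane 1, 8.30 TPM on 5 counts, and in Lane 2, 7.51 TPM on 9 counts. The next values there were 7.61 and 3.50 TPM. The library was looked up after its Lane 3 value had been seen, and was not in Lane 4.

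Whether differences between library numbers recurred was asked with the correlation of log2(TPM + 1) over the numbers that 2 lanes share, by one-sided permutation, adjusted over all genes. Between Lane 2 and Lane 1 (n = 48), 7 of the 9 genes passed, against 76.5% of 12494 genes. MCL1 had r = 0.63 (Spearman's rho 0.60), with the smallest p that 100000 permutations can give, 1e-05, for each. CDKN1A had r = 0.52 (permutation p = 4e-05, rho 0.42, permutation p = 0.0013) and MDM2 had r = 0.45 (permutation p = 0.00066, rho 0.45, permutation p = 0.00081), above the median r of 0.38 over all genes. The 3 genes held without the 2 libraries farthest from the Lane 1 median, at r of 0.61, 0.43 and 0.41. BCL2, BAX, FAS and BAK1 passed with r from 0.30 to 0.34, but FAS and BAK1 did not pass without those 2 libraries, at r of 0.20 and 0.16. With Spearman's rho FAS passed (0.30, adjusted permutation p = 0.032) and BAK1 did not (0.22, adjusted permutation p = 0.087). BBC3 and GDF15 did not pass, at r of 0.14 and 0.13.

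Between Lane 3 and Lane 1 (n = 24), 5 of the 9 genes passed, against 59.4% of 12432 genes, whose median r was 0.44. MDM2 had the highest r of the 9, 0.70 (permutation p = 5e-05, rho 0.71, permutation p = 5e-05), followed by BAK1 at 0.66 (permutation p = 0.00044, rho 0.56, permutation p = 0.0024) and MCL1 at 0.61 (permutation p = 0.0012, rho 0.65, permutation p = 0.00049). Without the 2 farthest libraries, r was 0.62 for MDM2, 0.50 for BAK1 and 0.59 for MCL1. GDF15 passed with r = 0.53 but had r = 0.33 without those 2 libraries (adjusted permutation p = 0.11). CDKN1A passed with r = 0.47, and its rho of 0.39 did not (adjusted permutation p = 0.055). BAX, BBC3, BCL2 and FAS did not pass, FAS having r = -0.13. BBC3 did pass with Spearman's rho (0.41, adjusted permutation p = 0.045), and BCL2 did without its 2 farthest libraries (r = 0.50, adjusted permutation p = 0.032). MDM2 and MCL1, the genes with the highest counts of the 9 here, passed in both pairs of lanes with Pearson's r, with Spearman's rho and without those 2 libraries. Every Lane 3 number is also in Lane 2, so both pairs use the same Lane 1 libraries and are not independent. The labels leave it unsaid whether same-numbered libraries of different lanes are 1 preparation, in which case recurrence would describe that preparation alone.

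**Figure D5:**
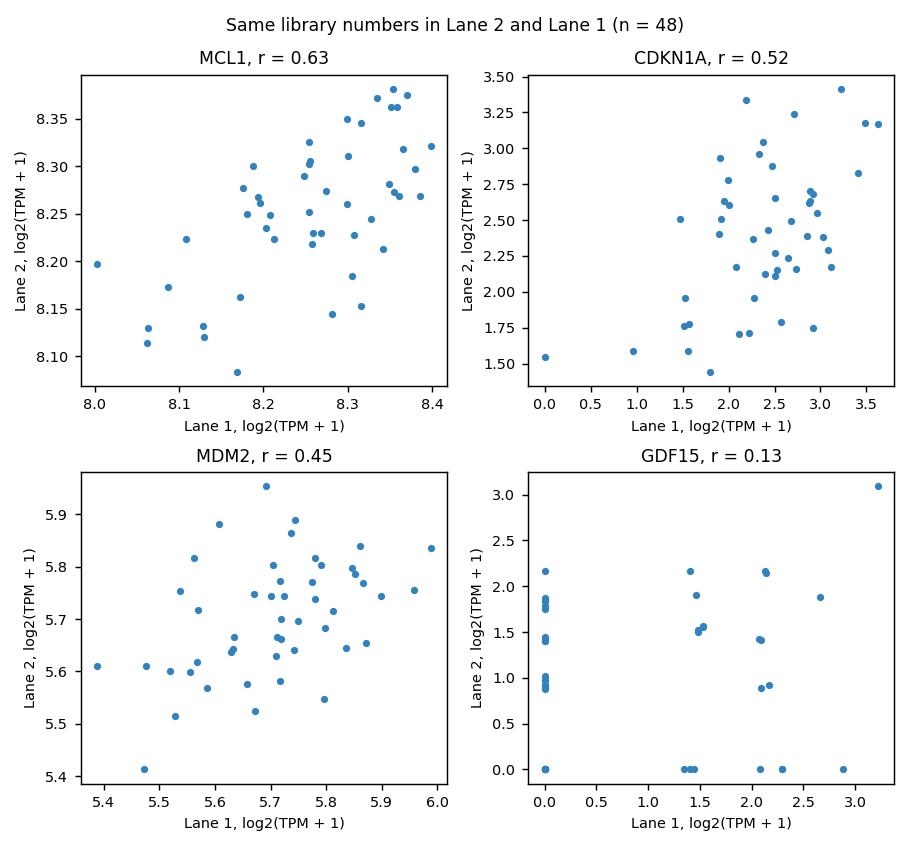
log2(TPM + 1) in Lane 2 against Lane 1 for the 48 library numbers in both, for MCL1, CDKN1A, MDM2 and GDF15, with 1 point per number. The points of MCL1 follow a slope (r = 0.63), and those of GDF15 spread over steps of single counts (r = 0.13), with many at 0 in Lane 1.

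The genes whose levels over the 95 Lane 1 libraries were most like those of a member were sought among the 8281 genes that averaged 10 TPM or more there. For MCL1 they were TXNRD1, BCAT1 and CDH1, with r of 0.54, 0.50 and 0.50 in Lane 1 and 0.51, 0.67 and 0.57 in Lane 2. The best 3 genes for each of the other 8 had r between 0.34 and 0.44 in Lane 1 and between -0.20 and 0.41 in Lane 2. These correlations are descriptions across libraries that share lane and depth, and no p is given. The genes were picked by their Lane 1 values. Every Lane 2 number is also in Lane 1, so the Lane 2 values are not an independent repeat.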

How the data were processed

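The deposited tables hold RSEM's expected counts for each gene and TPM, per the file headers and the submitters' processing notes, which name CASAVA 1.8.2, Bowtie 0.12.8, RSEM 1.2.3 and hg19. TPM scale counts by transcript length and library total. RSEM divides reads shared between genes by a model, so paralogs, overlapping and antisense genes are uncertain. The sources used here do not give whether strand was used in counting.

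After rounding, the expected counts went into edgeR 4.0.16 in R 4.3.3 (filterByExpr, TMM, quasi-likelihood test), fitted over all genes, with a Benjamini-Hochberg adjusted p under 0.05 as the threshold. The groups entered without covariates. Standard errors come from the fold change and its F statistic. Alternatives used DESeq2 1.42.0, RLE size factors, no filter, limma 3.58.1 on log2(TPM + 1) where genes averaged 1 TPM or more, a pseudocount of 0.1, a minimum fold of 1.2, counts thinned to a common total, other libraries and the replicate number as a block. The calling procedure was tested on simulated data. Correlations between lanes used genes averaging 1 TPM or more and 100000 permutations. G+C and length came from annotated transcripts (GENCODE v29 on GRCh38, matched by RefSeq accession) for 97.6% of genes tested in H1p43 against H1p16 and 97.7% in Lane 4 against TruSeq.

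Named genes were the 9 members, POU5F1, NANOG and SOX2, and from each list up to 3 called genes per direction with the lowest adjusted p and 5 TPM or more on average in the higher group. They also included the 3 genes most like each member in Lane 1. Some genes that the rule selects are not reported here. The members and lists were chosen with earlier results of these data known. Same-numbered libraries deviated together from their lane means, with correlations of 0.151 to 0.622 for Lane 2 with Lane 1, 0.22 to 0.544 for Lane 3 and 0.374 to 0.45 for Lane 4. All exceeded 0.1, so the numbers pair the lanes. No 2 libraries of a group agreed within sampling noise, with every chi-square per degree of freedom at 1.29 or more. Limits from a count of 0 cover counting error only.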

Additional observations from a re-analysis of the deposited data

How the results depend on the processing

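Of 345 recomputed fold changes of the 9 genes in H1p43 against H1p16 and in Lane 4 against TruSeq, 315 kept their direction and their side of the threshold, and so did 47 of 54 recomputed correlations. Between H1p43 and H1p16, a minimum fold of 1.2 left 5328 genes and 5 of the 9. Leaving out 1 library at a time gave 9828 to 10470 genes and 8 to 9 of the 9 there, and 9493 to 9795 genes and 7 to 8 of the 9 for Lane 4 against TruSeq. The log2 fold change of BCL2 in H1p43 reversed to -0.17 in limma on log2(TPM + 1), with or without a filter, and to -0.24 with a pseudocount of 0.1. In Lane 4 it reversed to -0.0097 in edgeR with no filter, to -0.38 in limma on log2(TPM + 1), with or without a filter, to -0.64 with a pseudocount of 0.1 and to -0.12 against H1p43 alone, and ranged from -0.092 to 0.13 without 1 library at a time, with -0.06 without H1p16 replicate 3. The cause was not tested beyond the relative lengths given above.

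H1p43 and H1p16 share only replicate numbers: correlations of same-numbered deviations were 0.0331 to 0.0554, though each of 3 correlated best with its own number. The replicate block there called 10463 genes and all 9 of the set, BCL2 included (edgeR adjusted p = 0.030). Among lanes, the replicate block called 26 genes in Lane 2, 44 in Lane 3 and 13 in Lane 4 against Lane 1. Without a filter, 1 gene was called in Lane 2. When every library of both lanes was used, 60 were called in Lane 3 and 0 in Lane 4, and thinned counts also gave 0 in Lane 4. None of these included the 9. For the repeat of levels, 4645 genes passed between Lane 3 and Lane 1 without the 2 farthest libraries. Depth limits GDF15, FAS, BCL2 and CDKN1A in Lane 1, where median counts were 1 to 4.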
